A study of Brassica napus with 8 samples.

Results

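This account covers the response of wild-type *Brassica napus* cv. Westar (oilseed rape) seedlings to 24 h of feeding by larvae of the cabbage moth *Mamestra brassicae*. It rests on 4 of the 8 arrays of the study, those of wild-type seedlings, and on every probe with a value on 3 or 4 of them, which left 6520 of 34992 probes. Another 927 probes had 2 wild-type values and 27545 had none. On each array, challenged seedlings, labelled in one dye, were set against control seedlings caged without insects, labelled in the other. The larvae were 10 days old and had been reared on wild-type seedlings, and the plants were 6 to 7 days old. Each of the 4 biological replicas pooled above-ground tissue, from 6 pots of challenged and 4 pots of control seedlings, with 4 seedlings in a pot. Neither group carries a transgene. The other 4 arrays compared challenged with control seedlings of *MINELESS*, the transgenic line whose myrosin cells had been removed. In such pooled tissue, fewer cells of a type and less RNA per cell cannot be told apart.

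Chewing larvae are known to set off jasmonic acid signalling in plants of the cabbage family. Jasmonates lead to the breakdown of JAZ repressors, which frees MYC transcription factors to switch on defence genes, among them those for tryptophan and indole glucosinolate synthesis. Glucosinolates are stored apart from myrosinase, the enzyme of the myrosin cells that splits them once tissue is crushed. The arrays carried *Arabidopsis* oligonucleotides, so a *B. napus* transcript was seen only where it hybridized to the sequence of its relative. Neither the ratio table nor the gene annotation at hand linked a probe to its gene. The response is therefore described for probes, grouped by direction and size, and no probe is assigned to a pathway.

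The log2 ratios of the 6520 probes were centred close to 0 on every array, with medians between -0.01 and 0.02. The wild-type replicas 1, 2, 3 and 4 gave values for 6491, 6427, 6269 and 4318 of these probes. Replicas 1 and 2 had the challenged sample in Cy5, and replicas 3 and 4 had it in Cy3. Across the 3945 probes with 4 values, arrays of opposite dye orientation correlated at *r* = 0.73 to 0.81, and arrays of the same orientation at 0.77 (replicas 1 and 2) and 0.67 (replicas 3 and 4). The arrays had therefore been turned one way before deposit. A positive ratio is likely a higher level in challenged than in control seedlings, since the study's design and legends state the comparison in that order, and all directions below rest on this reading. If the sign were turned, every rise below would be a fall and every fall a rise, with sizes and counts as given.

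After feeding, far more probes were clearly higher than lower, and the rises were also larger. Of the 6520 probes tested, 795 (12.2%) had a log2 ratio beyond 0.5 and passed the limma test at 0.05 after Benjamini-Hochberg adjustment, and are here said to be called. The adjusted *P* alone was passed by 809 probes (12.4%). Of the 795 calls, 605 probes (9.28% of those tested) were higher in challenged seedlings and 190 (2.91%) were lower, so 76.1% of the calls were rises. Called rises had a median log2 ratio of 1.05 and reached 3.73, while called falls had a median of -0.75 and reached -1.91.

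**Figure D1:**
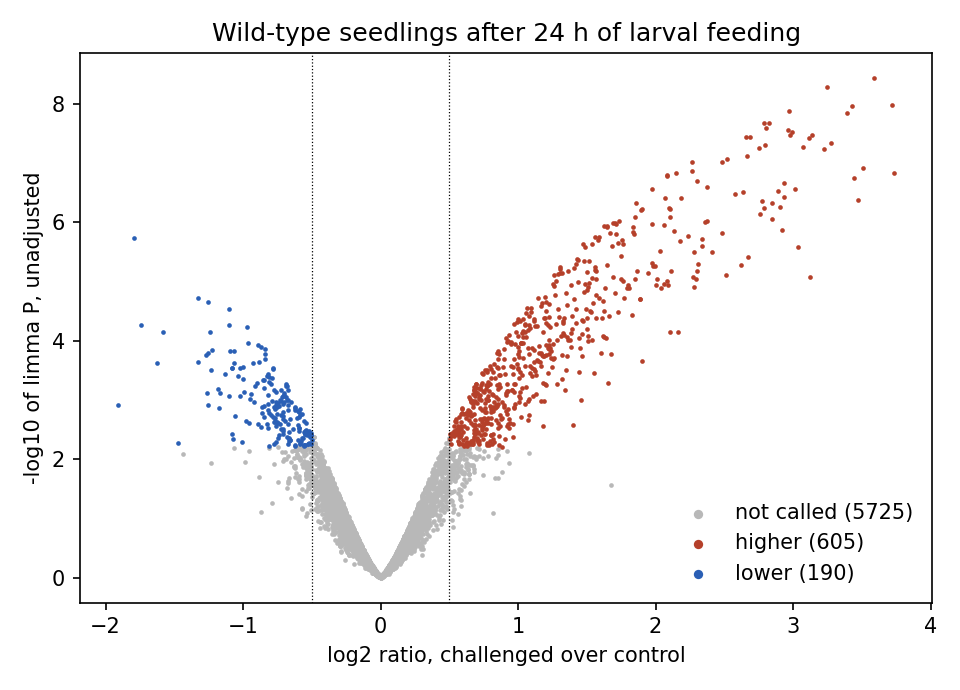
Log2 ratio of challenged over control wild-type seedlings (horizontal axis) against -log10 of the unadjusted limma *P* (vertical axis) for 6520 probes, one point each, with dotted lines at -0.5 and 0.5. The 605 higher probes reach 3.73 on the right, while the 190 lower probes end at -1.91 on the left.

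The excess of rises lay in the tail of the distribution, whose centre was close to 0. The authors' print tip-loess normalization within arrays draws the centre towards 0, so the centre and the near-even split are not read as results of feeding. Over all 6520 probes the median log2 ratio was -0.01, the middle of the distribution ran from -0.18 (25th percentile) to 0.20 (75th percentile), and slightly fewer probes lay above 0 (3165) than below it (3355). The outer percentiles were uneven, with -0.49 at the 5th and 1.01 at the 95th percentile, and -0.85 at the 1st and 2.16 at the 99th.

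The imbalance grew with the size of the response. Beyond a log2 ratio of 1, a 2-fold change, 329 called probes were higher and 36 lower. Beyond 1.5 there were 163 higher and 5 lower probes, and beyond 2, a 4-fold change, 84 higher and 0 lower. A rise beyond 3, or 8-fold, was measured for 17 probes. Large falls were thus scarce among the probes measured. Without regard to *P*, 752 probes lay above 0.5, of which 80.5% were called, and 312 lay below -0.5, of which 60.9% were called.

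**Figure D2:**
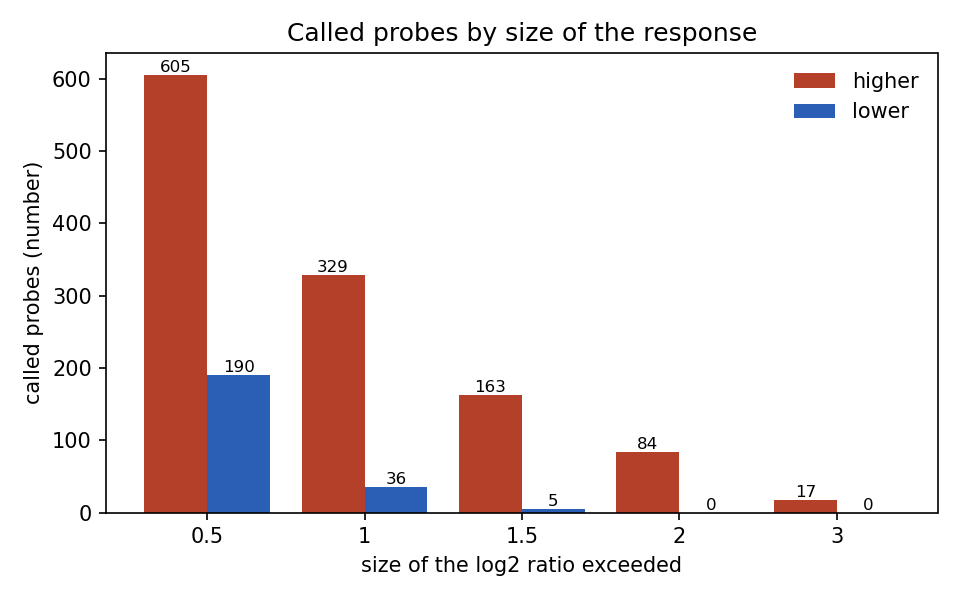
Number of called probes (vertical axis) whose log2 ratio exceeds 0.5, 1, 1.5, 2 or 3 in size (horizontal axis), with rises and falls as separate bars that start at 0. Rises decline from 605 to 17 over these steps, while falls decline from 190 to 36 at a log2 ratio of 1 and to 0 at 2.

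The number of falls depended on single arrays more than the number of rises did. Without replica 2, 497 of the 6491 probes then tested were called higher and 113 lower. Without replica 3, 4318 probes could be tested, and 645 were called higher and 392 lower, so that 62.2% of the calls were rises. These calls made up a larger share of a smaller set of probes than in the other fits. Without replica 1 or replica 4, which left 6427 or 6269 probes, 558 or 630 were higher and 159 or 221 lower. Rises outnumbered falls in each of these fits, and none of the 795 calls changed sign wherever it could still be estimated. Each of these fits kept arrays that had made the calls, so a change of sign was unlikely from the outset. With 3 arrays and a dye term 1 residual degree of freedom remains, so these counts lean heavily on the variance shared between probes, and without replica 3 limma took 1 variance for all probes.

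Narc8_24474 had the highest log2 ratio among called probes with 1 sign on all 4 arrays. Its values on replicas 1 to 4 were 3.36, 3.77, 3.55 and 4.19. All of them were large rises, with a mean of 3.72 ± 0.36 (SD, n = 4), about 13.1-fold, with limma giving an adjusted *P* of 1.55e-05. Narc8_30650 followed with 3.43, 3.68, 3.48 and 3.76. Its values were the tightest of the 10 highest probes, with a mean of 3.59 ± 0.16 (SD, n = 4), about 12.0-fold (adjusted *P* 1.55e-05, limma). The ranges of the 2 probes overlapped, so their order is not resolved. The next 8 probes had estimates down to 3.22, and no value of the 10 highest lay under 2.61 on any array. The highest estimate of all, 3.73 ± 0.26 (SD, n = 3), belonged to a probe with 3 values.

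The lowest probe by the same rule, Narc8_26709, lay far out on 1 array only. It had -0.95, -1.30 and -1.22 on replicas 1 to 3 and -4.15 on replica 4. Every array showed a fall, but the last was far from the rest, and the mean of -1.91 ± 1.5 (SD, n = 4) had an adjusted *P* of 0.0154 from limma. Without replica 4 the estimate was -1.17, with an adjusted *P* of 0.000477 from limma. Narc8_27519 had -1.52, -1.91, -2.13 and -1.63 on replicas 1 to 4. This was the most even of the 10 largest falls with 4 values, with a mean of -1.80 ± 0.28 (SD, n = 4), about 3.48-fold lower (adjusted *P* 0.00015, limma). These 10 falls had estimates up to -1.25 and single values between -4.15 and -0.39, with SDs of 0.28 to 1.5. The 10 largest rises with 4 values had SDs of 0.16 to 0.67. Among probes with 3 values the lowest estimate was -1.47 ± 1.04 (SD, n = 3), with an adjusted *P* of 0.045 from limma.

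**Figure D3:**
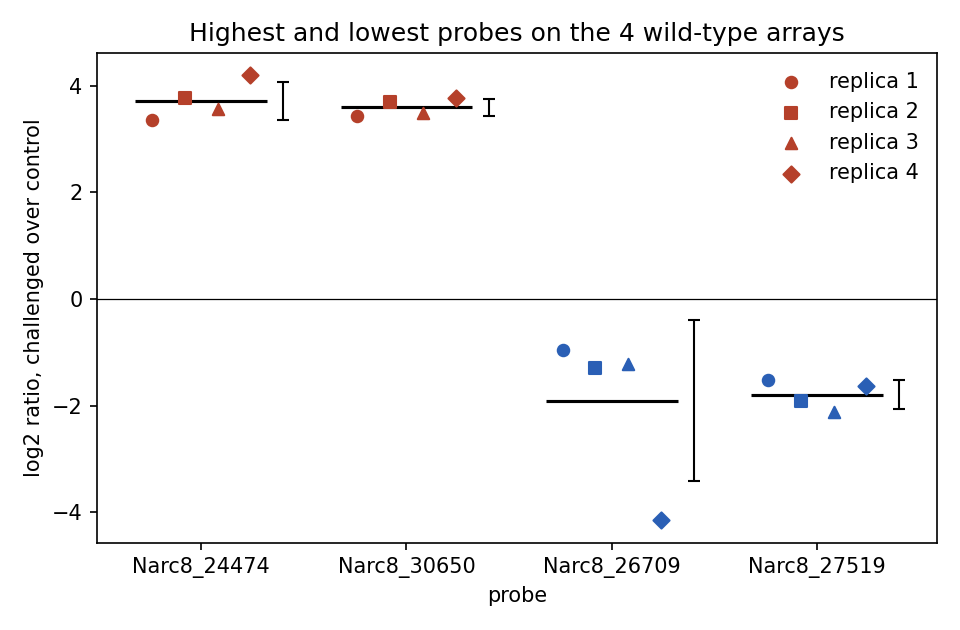
Log2 ratios of challenged over control wild-type seedlings (vertical axis) for the 2 highest and 2 lowest probes with 1 sign on all 4 arrays (horizontal axis), with a symbol for each replica, a line at the mean and a bar for ± SD. Narc8_26709 stands at -4.15 on replica 4 and keeps between -1.30 and -0.95 elsewhere, whereas Narc8_27519 keeps between -2.13 and -1.52.

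Called rises and falls kept their sign across the arrays. Of the 467 called rises with 4 values, 464 were above 0 on all arrays, and each of the other 3 had a single value between -0.03 and 0. All 155 called falls with 4 values were below 0 on every array. Among the 3323 probes with 4 values that were not called, 28.3% had 1 sign. Agreement in sign follows in part from the call itself, since the same arrays made it.

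Rises were also large on every array more often than falls were. Every array lay above 0.5 for 303 of the 467 rises (64.9%) and above 1 for 154 (33.0%). Every array lay below -0.5 for 49 of the 155 falls (31.6%) and below -1 for 2. The same arrays had made the calls, and called rises were larger, with a median of 1.05 against -0.75 for called falls. These shares follow in part from that, so they are not read as a measure of how well falls repeat. The arrays shared far more of their strongest probes at the upper end. When the 100 highest probes were taken from each array alone, 57 were in all 4 lists, and any 2 lists shared 70 to 80 probes. Of the 100 lowest, 7 were in all 4 lists, and any 2 lists shared 16 to 40. All 57 and all 7 were called. The lower lists began closer to 0, at -0.71 to -1.13, where the upper lists began at 1.73 to 2.08, so more probes lay near the limit of a lower list.

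The spread between arrays was of a like size for rises and falls of small size, and wider for the larger falls and the largest rises. At a log2 ratio of 0.5 to 1 in either direction, the median SD was 0.33 for 273 higher probes and 0.36 for 197 lower ones. At 1 to 1.5 it was 0.33 for 116 higher and 0.48 for 22 lower probes. Computed on replicas 1 to 3 alone, the last 2 values were 0.28 and 0.32, so the gap was smaller without replica 4. At 1.5 to 2 the median SD on all arrays was 0.34 for 59 higher and 0.64 for 5 lower probes. At 2 to 4, where no lower probe lay, it was 0.45 for 78 higher probes, and 0.28 on replicas 1 to 3 alone.

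The log2 ratios of called probes differed in size between replicas in both directions. Over the 467 rises, the median log2 ratio was 0.93, 1.16, 1.07 and 1.25 on replicas 1 to 4. Over the 155 falls it was -0.55, -0.69, -0.73 and -0.88. Replica 1 gave the smallest and replica 4 the largest medians on both sides. Replica 4 held the strongest value for 45.8% of the rises and 51.0% of the falls. Over all 3945 probes with 4 values, called or not, the median size was 0.235, 0.265, 0.259 and 0.354 on replicas 1 to 4. The ratios were not scaled between arrays here. A stronger response on a replica and a wider scale of its array therefore cannot be told apart in these values.

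**Figure D4:**
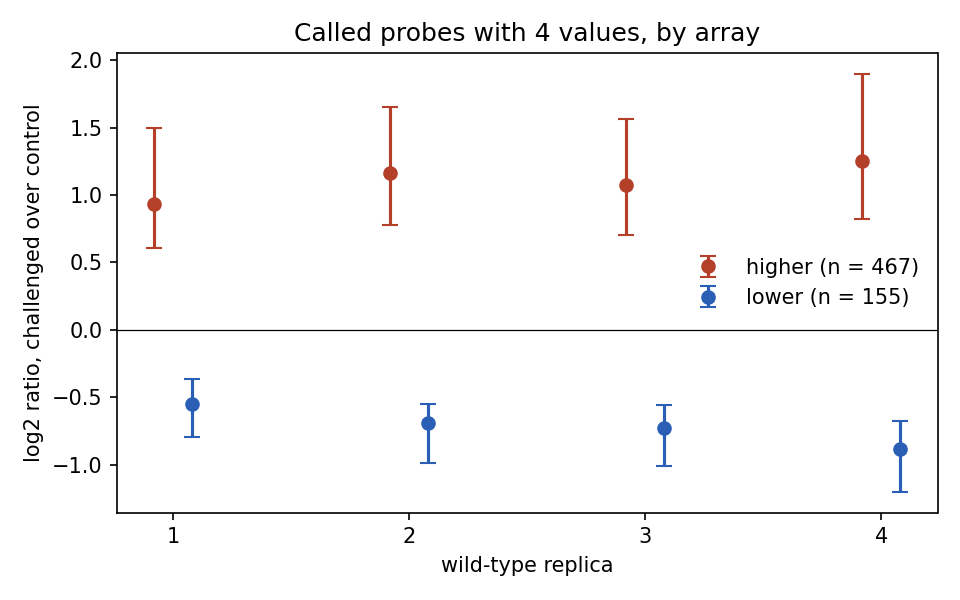
Log2 ratios of challenged over control seedlings (vertical axis) on wild-type replicas 1 to 4 (horizontal axis), with points at the median and bars from the 25th to the 75th percentile over the 467 called rises and 155 called falls with 4 values. The medians lie between 0.93 and 1.25 for rises and between -0.88 and -0.55 for falls, farthest from 0 on replica 4.

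To see how calls held on an array that had not made them, each array was left out in turn and the probes called on the other 3 were read on it. Rises kept their sign almost always. Of those called without replica 1, 2, 3 or 4, 98.2%, 98.7%, 92.3% and 97.0% were above 0 on the array left out. Falls held less evenly, with 91.5%, 99.1%, 74.3% and 86.1% below 0. Among probes not called on the other 3 arrays, 61.5% to 69.5% had the same sign on the array left out. The 362 falls called without replica 3 were the largest and least repeated set of the 4, with 31.5% below -0.5 on it. On these 3945 probes limma took 1 variance for all probes without replica 3 and without replica 4.

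Sizes were also kept better by rises than by falls, but the sets were not matched in size. The median estimate without replica 1, 2, 3 or 4 was 1.15, 1.13, 0.94 and 0.98 for called rises. For called falls it was -0.81, -0.83, -0.67 and -0.64, nearer to the threshold of 0.5. What part of the gap in sign and size follows from this was not tested. Rises measured on the left-out array had a median of 0.82, 1.00, 0.78 and 1.09 times the estimate from the other 3 arrays, for replicas 1 to 4. For falls the median ratio was 0.53, 0.86, 0.39 and 0.76. Without a dye term, where the 3 arrays leave 2 residual degrees of freedom, rises kept their sign in 96.6% to 99.3% and falls in 83.6% to 99.2%. By the share of kept signs, replica 2 matched calls made without it most closely in both directions, with or without the dye term. These shares are descriptions over probes, which are not independent of each other, and no test was made of the difference between rises and falls.

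**Figure D5:**
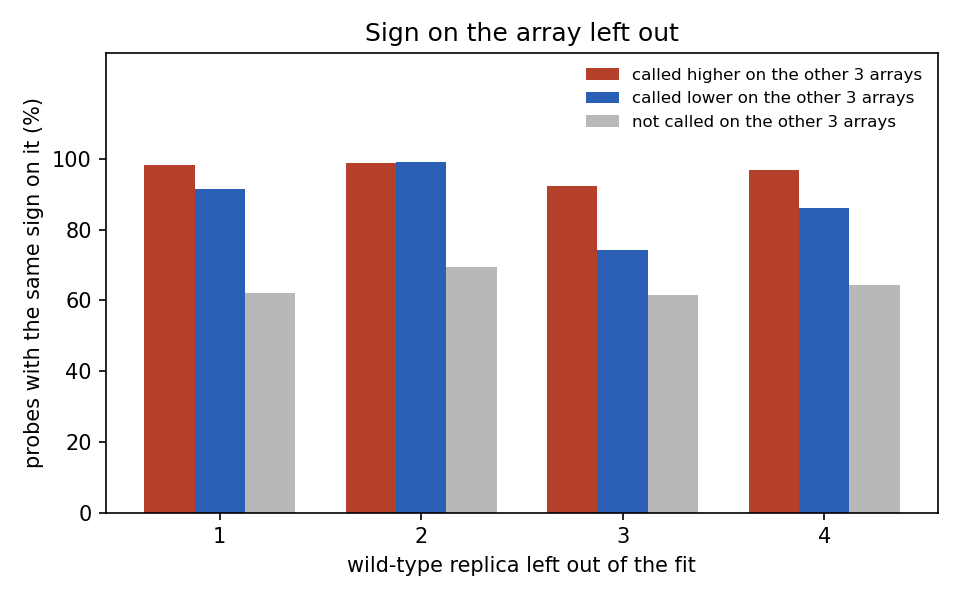
Share of probes (vertical axis, in percent) with the same sign on the left-out wild-type array as in the fit to the other 3 arrays, by the replica left out (horizontal axis), for called rises, called falls and probes not called. Rises lie between 92.3% and 98.7%, falls between 74.3% and 99.1%, and probes not called between 61.5% and 69.5%.

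Replica 4 was empty for 2202 of the 2575 probes with 3 values. These probes were called less often than complete ones, with 125 calls (5.68%) against 622 of 3945 (15.8%). The comparison was repeated on replicas 1 to 3 alone, which puts both sets on the same number of values. Probes without a value on replica 4 were then called in 9.26% of cases and those with one in 16.0%. Ratios beyond 1 in size were found for 2.95% of the probes without a replica 4 value and 6.74% of those with one. The median SD on replicas 1 to 3 was the same, 0.22 in both sets. What made a spot count as empty is unknown from the sources, and its part in these shares was not tested.

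Replica 4 also had the widest spread of log2 ratios. Over the 3945 complete probes its SD was 0.77, against 0.57 to 0.61 on the other 3 arrays. Values below -1 made up 3.84% of its own, compared with 0.63% to 1.04% on the others, and values above 1 made up 8.73%, compared with 5.10% to 5.88%. Without it, 680 of the 758 calls that could still be tested were called again.

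No effect of the dye remained that passed the test. The dye term had an adjusted *P* under 0.05 for 0 of 6520 probes and an unadjusted one for 44 (0.675%) in limma. Of these 44 probes, 41 were among the 795 called for the response, which made up 12.2% of all 6520 probes. Both *P* values of a probe came from the same limma fit and the same variance, so they were not independent. What made the 2 sets overlap was not tested. The median size of the dye term was 0.10, whereas the response had a median size of 0.19. Over the 467 rises, the mean of replicas 3 and 4 (challenged in Cy3) had a median of 1.12 and that of replicas 1 and 2 (challenged in Cy5) one of 1.02. Over the 155 falls these medians were -0.84 and -0.66. Replica 4, which had the widest log2 ratios, was in the Cy3 pair. Dye orientation and the spread of single arrays therefore cannot be told apart in these medians. Both pairs lay beyond 0.5 for 412 of the rises (88.2%) and 103 of the falls (66.5%), and no call had pairs of opposite sign. The 0.675% of probes with an unadjusted limma *P* under 0.05 lay below the share of 0.05 that no dye effect would give. The study's analysis removed genes with strong dye bias, and whether the deposited table had already lost them was not tested. If it had, the count of 0 would follow from that removal and would not measure the dye effect.

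The same probes could be set against *MINELESS* only in part. Values on at least 3 *MINELESS* arrays existed for 1747 of the 6520 probes, and 2771 had none. Wild-type calls made up 16.3% of the 1747 probes, 12.3% of those with 1 or 2 *MINELESS* values, and 9.49% of those with none. Of the 795 wild-type calls, 285 therefore lay on probes where the genotypes could be compared, and 247 and 263 on those with few or no *MINELESS* values. Among the 285 calls, 190 of 196 rises and 78 of 89 falls had the same sign in *MINELESS* seedlings. How many uncalled probes had the same sign in both genotypes is not given here, so these counts are not read as particular to the calls.

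When all 8 arrays were fitted together in limma, 15 of these 285 calls differed between the genotypes (*MINELESS* minus wild-type, more than 0.4 in log2, 0.05 after adjustment). Over all 1747 probes tested, 18 (1.03%) passed, with 11 lower and 7 higher in *MINELESS*. The 10 rises among them were lower in *MINELESS* than in wild-type seedlings, and the 5 falls were higher there. The 285 probes had been called on the same wild-type arrays, which favours differences of that direction, so nothing is read from it. The numbers lower and higher in *MINELESS* were 4 and 6 with arrays scaled, 24 and 13 with the replicate block, and 25 and 18 with array weights. The labels of *MINELESS* replicas 3 and 4 name the dye of the challenged sample in one field and call both channels challenged in another. The first was used for the dye term, and without a dye term 19 of the 285 differed. The count of 15 also rested on single arrays. It was 0 once wild-type replica 2 was left out and 0 once *MINELESS* replica 3 was, where the unadjusted limma *P* was under 0.05 for 76 and 81 calls. Leaving out wild-type replicas 1, 3 or 4 gave 3, 31 or 20, and leaving out *MINELESS* replicas 1, 2 or 4 gave 1, 5 or 5.

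The extreme probes did not all behave alike in the other genotype. Narc8_24474 averaged 3.00 ± 0.53 in *MINELESS* and 3.72 ± 0.36 in wild-type seedlings (SD, n = 4 each), and the difference had an adjusted *P* of 0.238 from limma. Narc8_30650 had 2.75 and 2.92 on the 2 *MINELESS* arrays that measured it, below all 4 wild-type values, and its difference was not tested. Narc8_27519 averaged -1.44 ± 0.27 in *MINELESS* and -1.80 ± 0.28 in wild-type seedlings (SD, n = 4 each), with an adjusted *P* of 0.562 from limma. Narc8_26709 had 0.62, 0.39, 0.02 and -0.14 on *MINELESS* replicas 1 to 4, all above its wild-type values. These probes had been picked for their extreme wild-type values, which favours less extreme values in *MINELESS*, so nothing is read from such differences.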

How the data were processed

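The authors hybridized challenged and control RNA to dual-colour *Arabidopsis* oligonucleotide arrays. They log-transformed the data, normalized within arrays by print tip-loess without background subtraction, averaged replicate spots and, in their analysis, removed genes with a strong dye bias, using limma and R 2.10.1 per the labels. The deposited values are log2 ratios. Scanner files were not used here, and signal over background is therefore unknown.

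The ratios were taken as deposited. Wild-type was fitted alone (limma 3.58.1, R 4.3.3), with a response and a dye coefficient for each probe and moderated variances (5.98 prior degrees of freedom), on probes valued on at least 3 arrays. *P* values were two-sided and adjusted by Benjamini-Hochberg over 6520 probes. The named probes were the 2 highest and 2 lowest calls with 1 sign on 4 arrays. The difference between genotypes was a coefficient in 1 fit to 8 arrays over 1747 probes.

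Probes and tests were chosen with earlier results of these data known. Lists of jasmonate, tryptophan, glucosinolate, myrosinase, salicylic acid and photosynthesis genes could not be applied, for want of a table of the probes' genes. Alternatives were other dye terms, coverage, centring, scaling, weights, moderation and thresholds, and arrays left out. The fits were first tested on simulated data. With 200 of 6520 probes changed by 0.75, 1 or 1.5 in log2, the wild-type fit recovered 33%, 89% and 100% of them. Of its calls, 2.94%, 5.82% and 8.26% were false. The difference fit recovered 98.5% of 200 probes changed by 1.5, with 4.37% of its calls false. The number of arrays limits the precision.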

Additional observations from a re-analysis of the deposited data

Results flagged for a closer look

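Dixon's ratio was examined for 17 sets of 4 array values and passed its 95% critical value in 3. About 1 in 20 independent sets does so by chance. These sets are linked measures of the same arrays, and the named probes were picked for extreme means, so 3 of 17 is not set against that rate. The tested probes had 4318 values on wild-type replica 4, compared with 6269 to 6491 on each of the other 3 arrays. On the same array 3.84% of the values lay below -1, against 0.63% to 1.04% on the others. Narc8_26709 had a log2 ratio of -4.15 there and -1.30 to -0.95 on the other wild-type arrays.

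The difference between genotypes, *MINELESS* minus wild-type, passed its test for 15 of the 285 wild-type calls that could be compared, and for 18 of all 1747 probes tested (1.03%). One of them was Narc8_26709, with a mean log2 ratio of 0.22 ± 0.35 in *MINELESS* and -1.91 ± 1.5 in wild-type seedlings (SD, n = 4 each). Its difference was 2.13, with an adjusted *P* of 0.0387 from limma. The probe had been picked as the lowest wild-type call with 1 sign on all 4 arrays, which favours a difference of that direction. The difference was 1.44 without wild-type replica 4 (adjusted *P* of 0.00125). It no longer passed when wild-type replica 1 or 2, or any single *MINELESS* replica, was left out (adjusted *P* of 0.0698 to 0.213), and had an adjusted *P* of 0.00145 when wild-type replica 3 was.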

How the results depend on the processing

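Limma's treat against a log2 ratio of 0.5 and the removal of values of exactly 0 were alternatives chosen after seeing the data. The count of 795 wild-type calls stayed within 1.5 times except with a log2 ratio beyond 1 (365), an adjusted *P* of 0.01 (421) and treat (269, 257 higher and 12 lower). Leaving out each array gave 610 (of 6491 probes tested, without replica 2) to 1037 (of 4318, without replica 3). The share of rises, 76.1%, was 71.9% with no dye term, 72.0% with values on all 4 arrays, 71.9% with arrays centred, 72.4% with all 8 arrays in 1 fit, 90.1% beyond 1, 88.4% at an adjusted *P* of 0.01, 95.5% by treat, and 62.2% to 81.5% when single arrays were dropped. The cause was not tested. The dye effect had 0 probes under every alternative run (30 to 57 unadjusted), and the sign held on the left-out array in 93.7%, 95.6% (no dye term) and 94.7% (scaled) on average. The 15 differences between genotypes became 37 with the replicate block in place of the dye term, 43 with array weights, 10 with arrays scaled, and 0 to 31 when single arrays were dropped. Same-numbered arrays of the genotypes deviated together with *r* = 0.24, 0.04, -0.11 and 0.03, and no array correlated best with its own number, so the numbers were not taken as a pairing. The named probes kept sign and call in 66 of 68 values, and Narc8_26709 lost the call at an adjusted *P* of 0.01 and by treat.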

Other observations

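Log2 ratios of exactly 0 occurred 22 times on wild-type replica 4, where each of the 6 neighbouring steps of 0.001 held 3 to 6 values. On replicas 1, 2 and 3 they occurred 5, 6 and 11 times, with 6 to 13, 2 to 10 and 3 to 10 values at the neighbouring steps. With such values taken as empty, 808 probes were called, 610 higher and 198 lower, and all 795 original calls were among them.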
